A study of Homo sapiens with 34 samples.

Results

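The SLAM-seq libraries of a pair of hTERT RPE-1 lines were read for 10 genes that are widely used as readouts of the transcriptional coactivator YAP, namely CTGF, CYR61, ANKRD1, AMOTL1, AMOTL2, AXL, LATS2, EDN1, AMIGO2 and AJUBA. They are 10 of the 19041 genes in the 3′ UTR count tables and were picked by symbol. The set was chosen by values of these data, namely the levels by line, the decay of the label and the change in level over the chase. Those values are therefore given below as a description without p-values. Where one of the 10 is said to be called, this only places it by the threshold applied to all genes and is no test of that gene. The change over the s4U pulse is not among the values used for the choice and is tested. Its libraries do enter the levels, the chase changes and the decay, so this test is not independent of the choice. Of the symbols, 5 named an interval exactly, and the other 5 were listed more than once in the name of their interval and were read as 1 gene.

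hTERT RPE-1 is a diploid human retinal pigment epithelial line immortalised with telomerase. In the knockdown line, doxycycline induced an shRNA against CCND1, which encodes the G1 cyclin D1, and by the study's account these cells grow large. In the overexpression line it induced the same shRNA together with a CCND1 allele that the shRNA cannot target, and these cells stay small. Both lines are stable populations with integrated inducible constructs, and all libraries come from cells kept in 0.5 µg/mL doxycycline. On day 4 of induction, 10 µM 4-thiouridine (s4U) was given for 24 h in medium renewed every 3 h, and was then chased with 1 mM uridine for 0 to 1440 min. Unlabelled control cells were given 10 µM uridine instead and were harvested when the chase began. There were 17 libraries from the knockdown line and 17 from the overexpression line. The libraries of 1 line and 1 replicate number are called a course, with 2 courses per line, and nothing in the labels says whether the courses were grown separately. Levels are read counts scaled to the reads in 3′ UTRs of single genes in each library (CPM), and since the reads come from transcript 3′ ends they carry no length scaling. A fold change of the line comparison is the knockdown line over the overexpression line.

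YAP and its paralogue TAZ (gene WWTR1) have no DNA-binding domain and act through the TEAD transcription factors. The Hippo kinases LATS1 and LATS2 phosphorylate YAP and hold it in the cytoplasm, and the pathway responds to cell density, attachment, cytoskeletal tension and serum lipids. Several YAP targets code for regulators of the pathway itself, which makes a negative feedback. CTGF and CYR61 (now named CCN2 and CCN1) are the matricellular proteins most often used to read YAP activity, and their mRNAs are known to be short-lived.

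The libraries held 14712332 to 44480703 3′ UTR reads. Of 10 pigment epithelial and epithelial markers, those that define mature pigment epithelium (RPE65, RLBP1, BEST1, TYR, PMEL and SERPINF1) were at most 1.12 CPM in any library, while KRT8, KRT18, VIM and MITF were expressed. The 8 markers of blood, endothelium, other epithelia and liver reached at most 1.26 CPM. Reads in the CCND1 3′ UTR averaged 147 ± 8.51 CPM in the knockdown line and 58.3 ± 5.09 CPM in the overexpression line (SD, n = 2 courses each). Both lines express the shRNA, the introduced allele need not carry this 3′ UTR and uninduced cells were not analysed here, so these reads check neither label, and directions below follow the labels. The 3 libraries below correlated least with the rest of their line, namely 720 min of overexpression course 1 (r = 0.864), unlabelled knockdown course 1 (r = 0.887) and unlabelled overexpression course 1 (r = 0.918).

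TEAD factors bind DNA at the core GGAATG, and the promoters of the genes were read for it on both strands. RefSeq promoters (GRCh38.p14, 250 bases before to 50 after a start site) were on hand for 9 of the 10 genes, all but CYR61, and 7 of these 9 held the core. Of all 27305 genes with such a promoter, 16.7% held it, and several of the 9 have more than 1 start site. The windows below show the core in capitals for the genes with the largest line or chase differences, and each is written along the gene's strand.
CTGF, chr6:131951526-131951551, minus strand, from 169 bases before the start: ttcagacggaGGAATGctgagtgtca
CTGF, chr6:131951461-131951486, minus strand, from 104 bases before the start: aaggtggggaGGAATGcgaggaatgt
CTGF, chr6:131951452-131951477, minus strand, from 95 bases before the start: aggaatgcgaGGAATGtccctgtttg
ANKRD1, chr10:90921292-90921317, minus strand, from 220 bases before the start: caccaccaaaGGAATGgccctctcac
ANKRD1, chr10:90921200-90921225, minus strand, from 128 bases before the start: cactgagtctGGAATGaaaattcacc
EDN1, chr6:12289875-12289900, plus strand, from 129 bases before a start: cgagggagagCATTCCcttgtttgac
AXL, chr19:41226533-41226558, plus strand, from 212 bases before a start: gactttgcacCATTCCactccctccg
CTGF held 3 cores and ANKRD1 held 2, and the last pair of CTGF cores starts 9 bases apart. AMOTL2, LATS2 and AJUBA held 1 each, whereas AMOTL1 and AMIGO2 held none in these windows. AMIGO2 held the AP-1 motif TGANTCA, which FOS and JUN proteins bind, in a stretch shared by the windows of its 2 start sites, and ANKRD1 held it once. Of all genes with a promoter, 9.37% held the AP-1 motif. A match describes the letters of the window and is not a measured binding site.

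The other end of the transcript is what the libraries read. The intervals lie in the 3′ UTRs of the genes on hg38. The number of T bases along the gene's strand matched the deposited T content in all 11040 intervals compared with the genome. The AU-rich pentamer ATTTA and its longer form TATTTAT are known marks of unstable mRNA. The first TATTTAT is shown in capitals for ANKRD1 and CYR61, which held most ATTTA per kilobase, and for EDN1, which had the shortest half-life of the 10 in 3 of the 4 courses.
ANKRD1, chr10:90912758-90912784, minus strand: atctagtttcTATTTATcaacgtgttg
CYR61, chr1:85583560-85583586, plus strand: ctgaatgtttTATTTATcaaaatgtag
EDN1, chr6:12297010-12297036, plus strand: tttttatagaTATTTATattcaaacaa
TATTTAT was found in 6 of the 10 genes (ANKRD1, CYR61, EDN1, LATS2, AMOTL1 and AJUBA) and in 36.6% of all genes compared. Per kilobase, CYR61 held 5.43 and ANKRD1 5.19 copies of ATTTA, above 93.6% and 92.8% of genes, against a median of 1.72 over all genes. AMIGO2 and AJUBA held 4.05 and 3.97, EDN1 3.55, LATS2 3.26 and CTGF 2.76 copies per kilobase. AMOTL1 and AMOTL2 held 1.17 and 1.09, below the median of all genes. AXL was the only one of the 10 with no ATTTA, in an interval of 1862 bases.

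Between the lines, ANKRD1, AMIGO2, EDN1 and CTGF were higher in the knockdown line and CYR61 and AXL were lower in it, by log2 differences of at least 0.54 in size. The other 4 genes differed by at most 0.15. By the threshold applied to all 13165 genes (edgeR's quasi-likelihood test, adjusted p under 0.05), 11.2% of genes were called higher in the knockdown line and 10.7% lower, and these 6 are among them. The line difference was in view when the 10 genes were chosen, so this count is no test of them and nothing is read from it. The median log2 difference was 0.10 over the 10 genes and -0.01 over all genes. Input RNA was equalised across samples, so levels are shares of the mRNA and not amounts per cell, and fewer cells that express a gene cannot be told apart from less of its RNA per cell. In the 0 min libraries alone 3 genes were called, ANKRD1, AMIGO2 and CTGF, and in the 1440 min libraries alone ANKRD1, CYR61 and AJUBA. The single libraries of the lines overlapped for all 10 genes, and 2.44% of all genes had 17 knockdown libraries apart from the 17 overexpression libraries.

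ANKRD1, an ankyrin repeat protein of the nucleus and the sarcomere, had the largest difference. Its level was 1199 and 1134 CPM in the knockdown courses, against 387 and 292 CPM in the overexpression courses, a log2 difference of 1.79 ± 0.15 (SE). Over single libraries it ran from 312 CPM through a median of 1261 to 2176 CPM in the knockdown line, and from 119 through 309 to 867 CPM in the overexpression line. Of 17 knockdown libraries, 14 lay above every overexpression library, and the highest overexpression value was the 720 min library of course 1, one of those that stood apart.

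CTGF had 1202 and 1131 CPM in the knockdown courses, against 770 and 786 CPM in the overexpression courses, a log2 difference of 0.59 ± 0.11. Its courses did not overlap, and 11 knockdown libraries lay above all overexpression libraries. CYR61, of the same protein family, ran the other way, at 1317 and 1251 CPM in the knockdown courses, against 2231 and 1630 CPM in the overexpression courses, a log2 difference of -0.58 ± 0.15. Overexpression course 1 was far above course 2 for this gene, with 2845 CPM in its unlabelled and 3707 CPM in its 720 min library, both among the libraries that stood apart. Without that course the log2 difference was -0.35 and was not called.

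EDN1 encodes the peptide endothelin-1, and AMIGO2 a transmembrane adhesion protein. EDN1 was at 90.1 and 77.9 CPM in the knockdown courses, against 52.3 and 48.4 CPM in the overexpression courses, a log2 difference of 0.74 ± 0.13. AMIGO2 was at 242 and 191 CPM in the knockdown courses, against 123 and 118 CPM in the overexpression courses, a log2 difference of 0.85 ± 0.14. For AMIGO2, 12 of 17 knockdown libraries lay above every overexpression library. AXL, the receptor tyrosine kinase for GAS6, was at 641 and 648 CPM in the knockdown courses, against 917 and 965 CPM in the overexpression courses, a log2 difference of -0.54 ± 0.12.

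The 4 genes with no called difference all encode regulators of the Hippo pathway. AMOTL1 and AMOTL2 are angiomotin-like scaffolds that can bind YAP, LATS2 is one of the kinases that phosphorylate it, and AJUBA is a LIM protein that restrains LATS. LATS2 had 85.0 and 77.5 CPM in the knockdown courses, against 78.9 and 75.0 CPM in the overexpression courses, a log2 difference of 0.08 ± 0.12. AMOTL1 differed by 0.12 ± 0.13, AMOTL2 by -0.06 ± 0.12 and AJUBA by -0.15 ± 0.13. Their levels in the knockdown and overexpression lines averaged 64.1 and 59.3 CPM for AMOTL1, 174 and 182 CPM for AMOTL2, and 110 and 122 CPM for AJUBA.

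**Figure D1:**
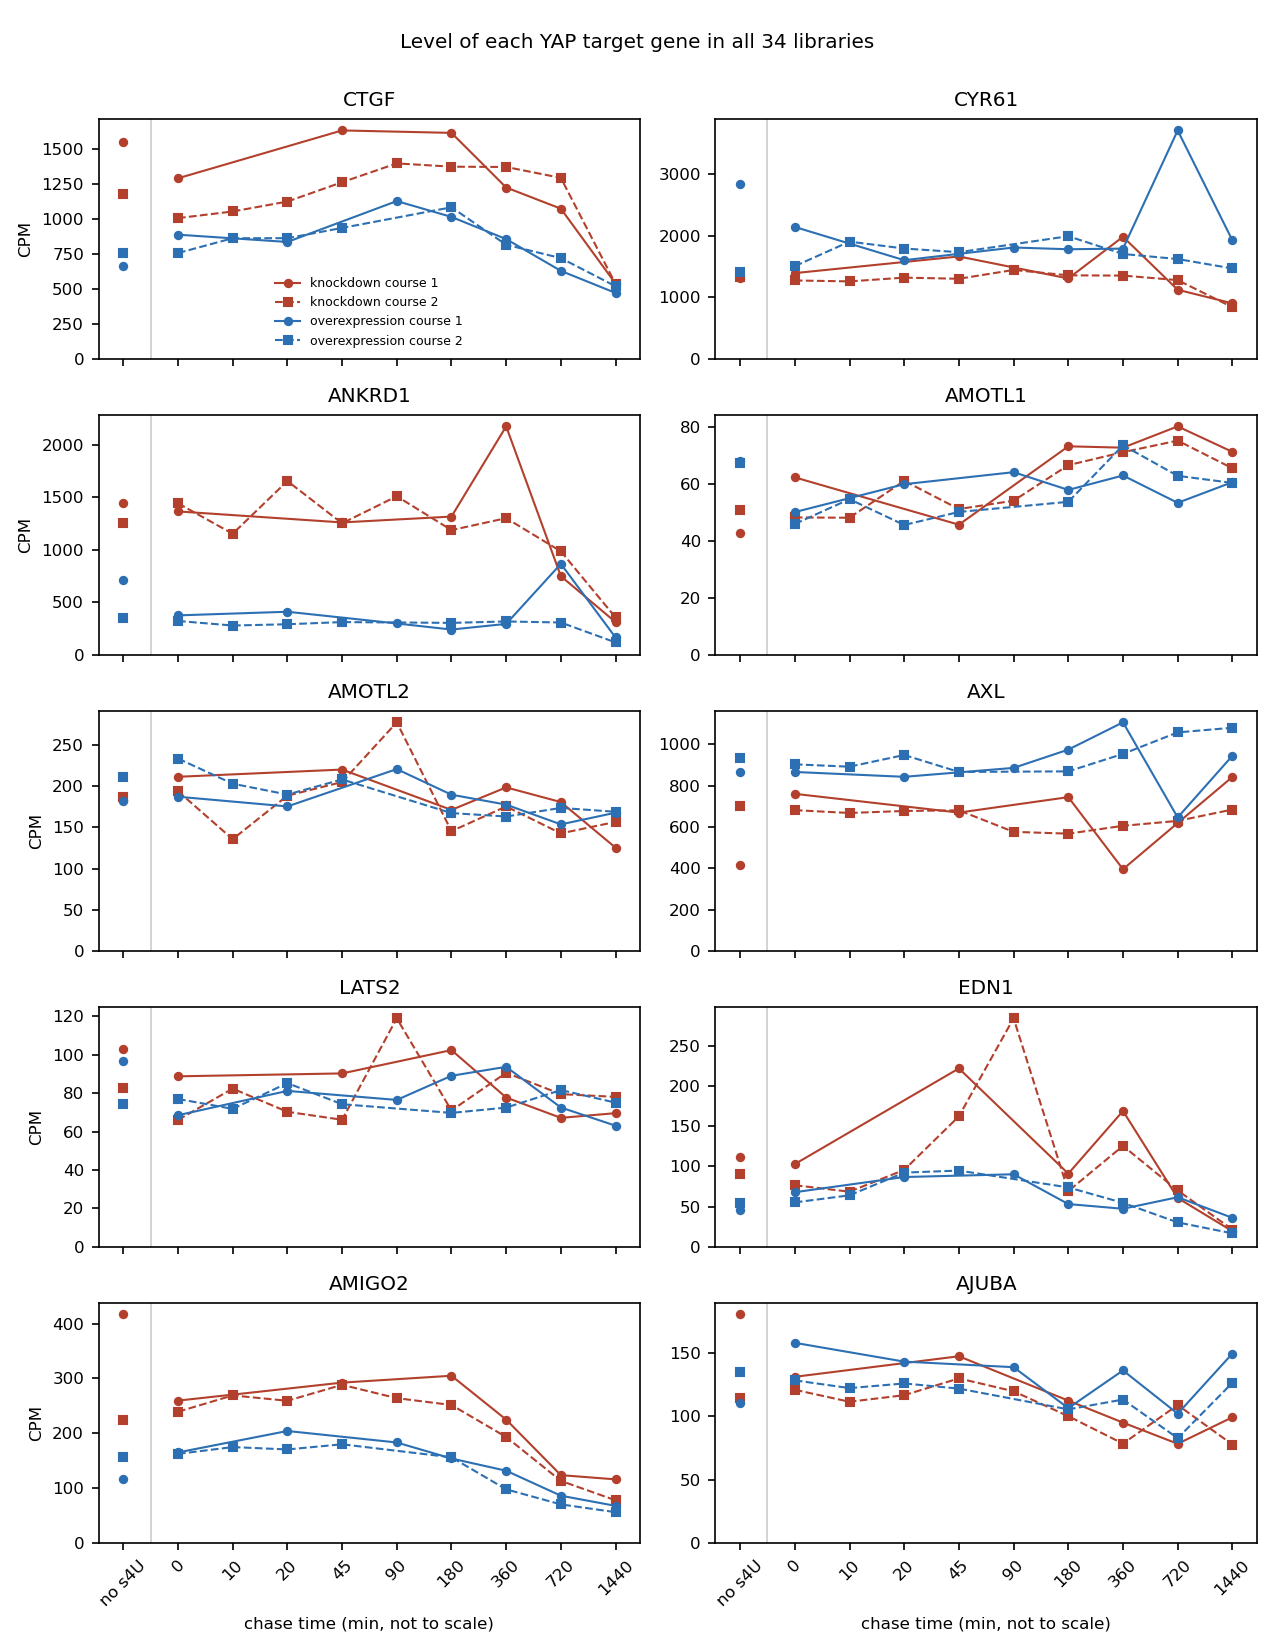
Level (CPM, vertical axis) of each gene in the 34 libraries against chase time in min, with knockdown courses in red, overexpression courses in blue, course 1 as circles and course 2 as squares, and the unlabelled libraries left of the vertical line. ANKRD1, CTGF, EDN1 and AMIGO2 are lowest at 1440 min in every course. In overexpression course 1 the 720 min library is high for CYR61 (3707 CPM) and ANKRD1 (867 CPM).

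At 1440 min of the chase, 8 of the 10 genes were lower than at 0 min, over both lines with the line in the model, and AXL and AMOTL1 were higher. Of all 11927 genes, 2.27% were called lower and 2.36% higher. The genes called lower include 6 of the 10, ANKRD1, EDN1, AMIGO2, CTGF, AMOTL2 and CYR61, and none of the 10 was called higher. This change too was in view when the genes were chosen, so the count is no test of them. The median log2 change was -0.46 over the 10 genes and 0.00 over all genes. Chase time and the time since the medium was last changed run together in this design and cannot be told apart.

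ANKRD1 was at 312 and 357 CPM in the knockdown line at 1440 min, against 1366 and 1443 CPM at 0 min. In the overexpression line it was at 166 and 119 CPM at 1440 min, against 376 and 323 CPM at 0 min. The log2 change over both lines was -1.75 ± 0.14, and all 4 courses were at or under 44.1% of their 0 min level. AMIGO2 was at 116 and 77.5 CPM at 1440 min in the knockdown line, against 259.5 and 239 CPM at 0 min. In the overexpression line it was at 67.4 and 55.9 CPM at 1440 min, against 165 and 162 CPM at 0 min, and the log2 change over both lines was -1.46 ± 0.12. At 720 min AMIGO2 was already at 47.6% and 47.3% of its 0 min level in the knockdown courses and at 52.1% and 43.2% in the overexpression courses. It was the only one of the 10 genes called at that time (-1.10 ± 0.15), where 0.0169% of genes were called lower and 0.0338% higher. That call was lost with a replicate block, here a term for each course that compares times within it (log2 change -1.09). The call was also lost without any 1 of 3 courses, both knockdown courses and overexpression course 2. Throughout, the log2 change stayed between -1.10 and -1.04.

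CTGF was above its 0 min level at 180 min in every course, though not past the threshold, and lower at 1440 min. At 180 min it stood at 125% and 137% of 0 min in the knockdown courses and at 114% and 143% in the overexpression courses, a log2 change of 0.35 ± 0.10, and with a replicate block it was called higher (0.36). At 1440 min it stood at 41.7% and 53.3% in the knockdown courses and at 53.1% and 68.6% in the overexpression courses, a log2 change of -0.98 ± 0.11. At 1440 min the lines were nearly level, with 537 and 535 CPM in the knockdown line, against 471 and 518 CPM in the overexpression line. None of the 10 genes was called at 180 min, where 0.0755% of all genes were lower and 0.638% higher. None was called at 360 min, where 0.126% were lower and 0.623% higher.

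EDN1 had an early peak in the libraries of 20 to 90 min, which only some courses hold. In knockdown course 2 its level was 76.6 CPM at 0 min, 68.6 at 10, 95.7 at 20, 162 at 45 and 284 CPM at 90 min, and then 69.3 CPM at 180 min. Knockdown course 1 had 103 CPM at 0 min and 222 CPM at 45 min. Overexpression course 2 had 55.3 CPM at 0 min, 64.1 at 10, 92.3 at 20 and 94.8 CPM at 45 min, and overexpression course 1 had 67.9 CPM at 0 min, 86.8 at 20 and 90.2 CPM at 90 min. All 4 courses were thus above their 0 min level at the times between 20 and 90 min that they hold, with 1 or 2 libraries per line and time and no test. EDN1 ended at 19.5 and 21.5 CPM at 1440 min in the knockdown line and at 36.1 and 16.7 CPM in the overexpression line, a log2 change over both lines of -1.74 ± 0.21. In the 1440 min libraries alone its line difference was -0.36 and was not called.

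CYR61 and AMOTL2 changed least among the genes called at 1440 min, with log2 changes of -0.43 ± 0.12 and -0.49 ± 0.11. CYR61 stood at 64.8% and 66.0% of 0 min in the knockdown courses and at 89.8% and 97.5% in the overexpression courses. Both calls depended on single courses: CYR61 was not called without either knockdown course (-0.34 and -0.35), and AMOTL2 was not called without knockdown course 1 (-0.39) or overexpression course 2 (-0.47). In the joint fit of 24 libraries neither was called, and 4 of the 10 were. The log2 changes of the remaining genes at 1440 min were -0.35 ± 0.13 for AJUBA, -0.14 ± 0.13 for LATS2, 0.07 ± 0.10 for AXL and 0.25 ± 0.13 for AMOTL1. AMOTL1 was above its 0 min level in all 4 courses at 180, 360, 720 and 1440 min.

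The change at 1440 min was compared between the lines with an interaction term. For 8 of the 10 genes the change was more negative in the knockdown line, and none was called, beside 0.0163% of all genes (2 of 12280). With 2 libraries per line and time, a p that misses the threshold does not show that the lines changed alike. EDN1 differed by -0.90 ± 0.35 and ANKRD1 by -0.76 ± 0.23. The changes within each line come from the joint fit of 24 libraries, a different model with larger SEs for a line difference. For EDN1 they were -2.19 ± 0.35 in the knockdown line and -1.29 ± 0.34 in the overexpression line. For ANKRD1 they were -2.13 ± 0.38 in the knockdown line and -1.36 ± 0.37 in the overexpression line. The median difference was -0.27 over the 10 genes and 0.00 over all genes.

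**Figure D2:**
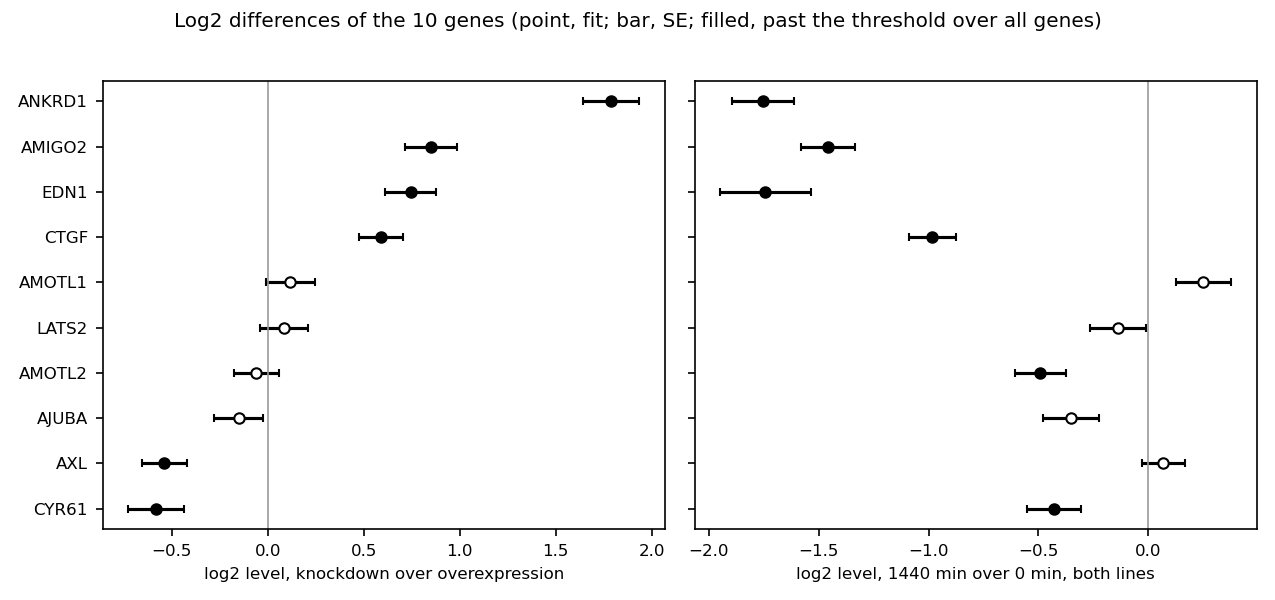
Log2 difference in level of the 10 genes between the lines (left, knockdown over overexpression) and between 1440 and 0 min over both lines (right), with the SE as bars and filled points for genes past the threshold. ANKRD1 is farthest from 0 in both panels (1.79 and -1.75). CYR61 and AXL are the genes past the threshold that are lower in the knockdown line, while AJUBA (-0.15) and AMOTL2 (-0.06) are lower but not past it.

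The label showed that the mRNA of most of these genes was replaced within hours. The T>C rate, which is the share of covered T bases read as C after s4U is alkylated, was corrected for the unlabelled cells of the same course and set against 0 min. Per course, all 3′ UTR reads kept 82.7% to 83.3% of their label at 180 min. CYR61 kept 30.8% and 28.7% in the knockdown courses and 29.1% and 26.0% in the overexpression courses. CTGF kept 52.3% and 56.5% in the knockdown courses and 36.5% and 34.4% in the overexpression courses. By 360 min the 9 genes other than AXL kept 3.79% to 33.8% in the knockdown line and 3.32% to 20.2% in the overexpression line. All 3′ UTR reads then kept 57.6% and 59.8% in the knockdown courses and 56.6% and 51.1% in the overexpression courses. These reads are weighted towards abundant mRNAs, and the median gene kept 37.0% and 43.3% in the knockdown courses and 36.8% and 28.4% in the overexpression courses. The highest of the 9 genes, AMOTL1 in knockdown course 1 with 33.8%, was close to that median.

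Label and level moved apart at this time. CTGF had lost most of its label at 360 min, with 11.4% and 13.1% left in the knockdown courses and 6.86% and 5.13% in the overexpression courses. Its level was then still at 94.9% and 136% of 0 min in the knockdown courses and at 96.5% and 108% in the overexpression courses. AMIGO2 likewise had 19.5% and 24.97% of its label left in the knockdown courses and 8.65% and 9.05% in the overexpression courses, at levels of 86.6% and 80.7% of 0 min in the knockdown courses and 79.7% and 60.1% in the overexpression courses. The lower levels at 1440 min were measured when at most 0.7% of the CTGF label was left.

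AXL was the exception. It kept 75.5% and 76.0% of its label at 360 min in the knockdown courses and 72.4% and 63.7% in the overexpression courses, more than all 3′ UTR reads in each course. At 1440 min it kept 19.3% and 19.1% in the knockdown courses and 2.32% and 3.46% in the overexpression courses. All 3′ UTR reads then kept 9.95% and 8.70% in the knockdown courses and 5.69% and 4.17% in the overexpression courses, so AXL lay above them in the knockdown courses and below them in the overexpression courses.

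**Figure D3:**
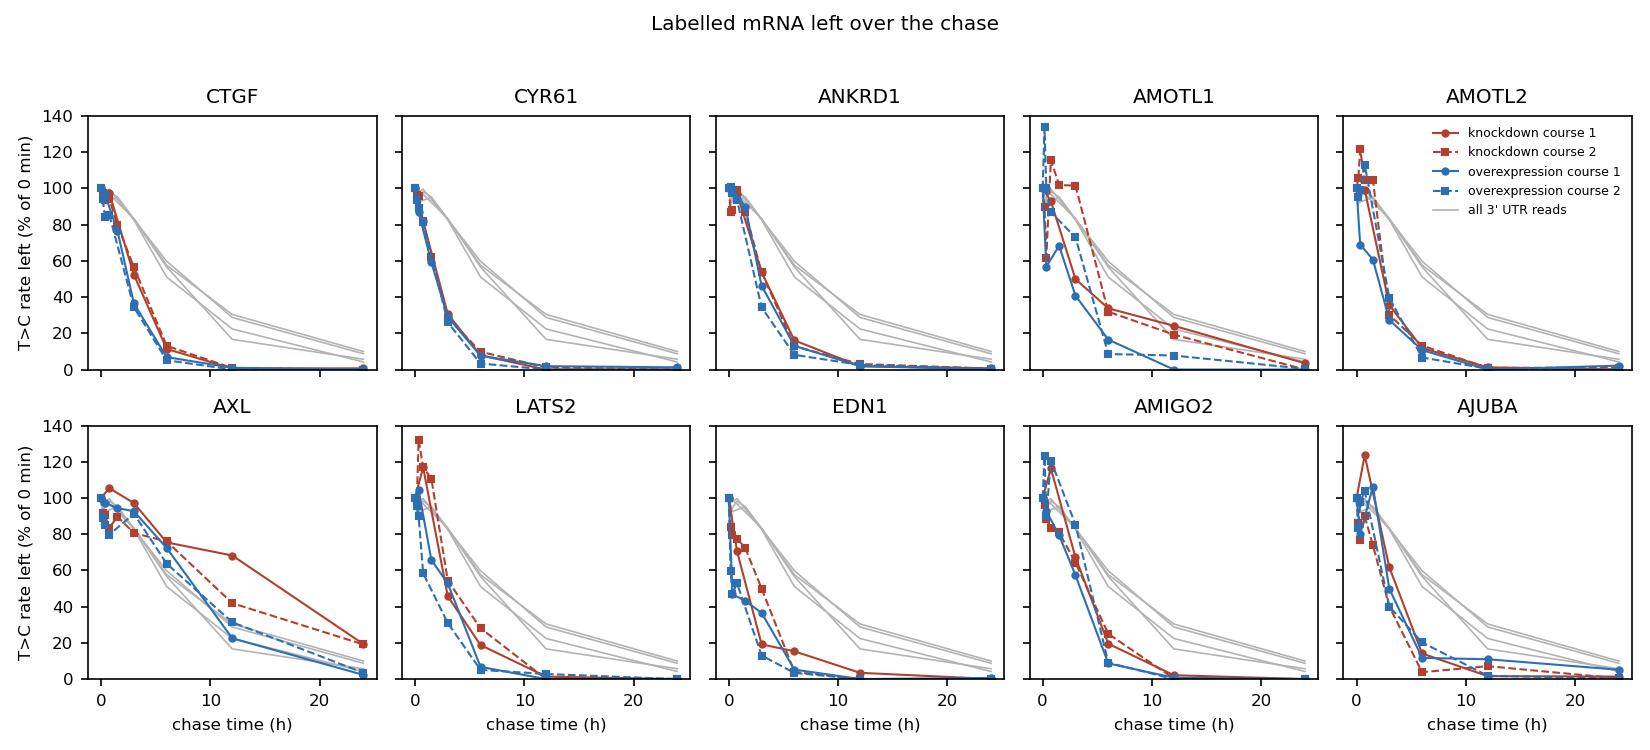
T>C rate left (percent of 0 min, vertical axis) of each gene against chase time in h, with knockdown courses in red, overexpression courses in blue and all 3′ UTR reads of the 4 courses in grey. The 9 other genes run below the grey lines from 6 h on in nearly every course, while AXL runs above them at 6 h, with 63.7% to 76.0% left.

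Half-lives from a single exponential could be fitted for all 10 genes in all 4 courses. The median over the 10 genes was 2.98 h in the knockdown line and 2.34 h in the overexpression line. Over the 3317 genes kept in every course, with R2 of at least 0.6, the medians were 5.14 and 4.68 h. With no R2 minimum they were 5.48 and 5.07 h over 8089 genes. CYR61 (mean ± SD of 2 courses here and below) had 1.91 ± 0.083 h in the knockdown line, against 1.72 ± 0.070 h in the overexpression line. Of the genes kept in a course, 8.19% to 14.7% were shorter. CTGF had 2.91 ± 0.23 h in the knockdown line and 2.11 ± 0.26 h in the overexpression line. ANKRD1 had 3.05 ± 0.15 h in the knockdown line and 2.57 ± 0.51 h in the overexpression line.

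EDN1 had 1.89 ± 0.59 h in the knockdown line, level with CYR61, and 0.86 ± 0.55 h in the overexpression line. EDN1 was the shortest of the 10 in 3 of the 4 courses, and in knockdown course 2 its 2.31 h was longer than the 1.97 h of CYR61 and the 2.28 h of AJUBA. The T>C rate is a share of the reads of a gene, and the level of EDN1 changed over the same times. So did those of CTGF (114% to 143% of 0 min at 180 min) and AMIGO2 (43.2% to 52.1% at 720 min). AXL had the longest half-life, 12.7 ± 3.24 h in the knockdown line and 7.95 ± 0.21 h in the overexpression line. AMOTL1 followed in the knockdown line with 5.11 ± 1.52 h, against 2.80 ± 0.89 h in the overexpression line, and LATS2 had 3.71 ± 0.97 h, against 1.99 ± 0.73 h. AMOTL2 had 2.72 ± 0.57 h in the knockdown line and 2.10 ± 0.60 h in the overexpression line. AMIGO2 (3.59 ± 0.16 and 3.39 ± 0.76 h) and AJUBA (2.86 ± 0.82 and 3.03 ± 0.43 h) overlapped between the knockdown and the overexpression courses.

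For 9 of the 10 genes, all but AJUBA, the mean half-life was longer in the knockdown line, as it was for 69.2% of the genes kept in every course. For 7 genes both knockdown courses lay above both overexpression courses, and for none below. Of the 3317 genes, 33.2% lay above and 9.35% below in this way. The median log2 ratio was 0.42 over the 10 genes and 0.21 over all genes, and the latter was 0.10 without the 720 min library of overexpression course 1.

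**Figure D4:**
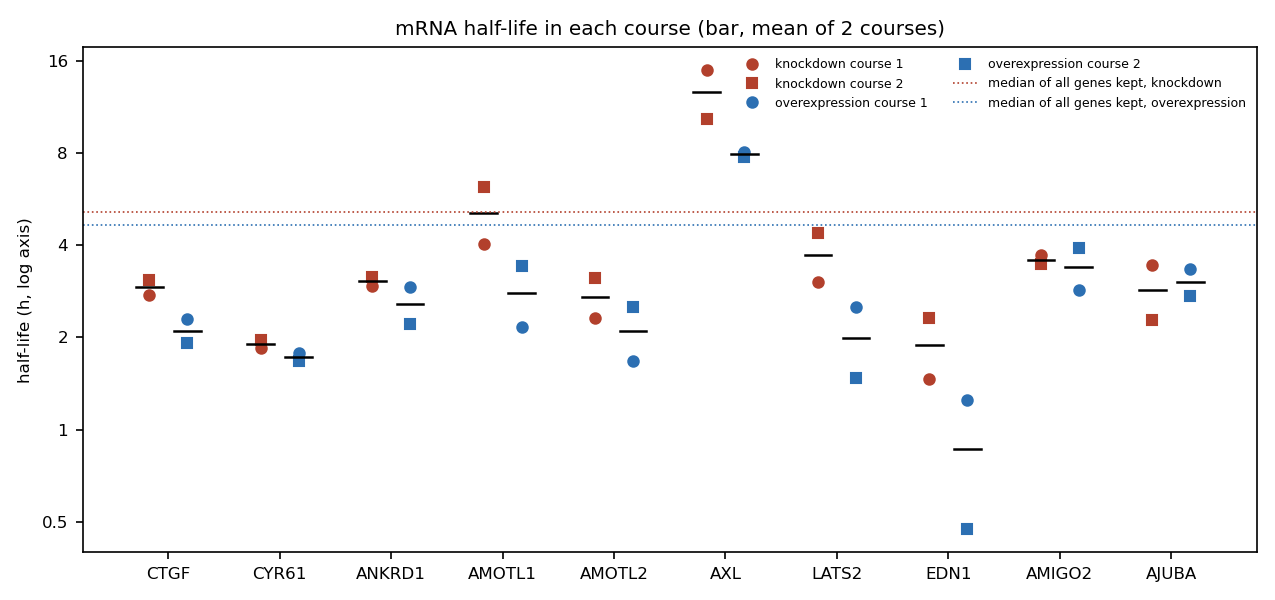
mRNA half-life (h, log axis) of each gene in each course, with knockdown left of overexpression, black bars for the mean of 2 courses and dotted lines for the median of the 3317 genes kept in every course. AXL (12.7 and 7.95 h) lies above both dotted lines in both lines, and EDN1 is lowest in 3 of the 4 courses.

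At the end of the pulse, the corrected T>C rate of the 10 genes was among the highest for CYR61, AJUBA and ANKRD1. In the knockdown line it was 1.08% ± 0.015 for CYR61, 1.09% ± 0.093 for AJUBA and 1.12% ± 0.053 for ANKRD1, beside medians of 0.767% and 0.768% over the genes of the knockdown courses. In the overexpression line it was 1.22% ± 0.0084 for CYR61, 1.16% ± 0.14 for AJUBA and 1.15% ± 0.0063 for ANKRD1, beside medians of 0.817% and 0.821%. EDN1 had 0.98% ± 0.12 in the knockdown line and 1.15% ± 0.090 in the overexpression line. AXL had 0.716% ± 0.025 in the knockdown line and 0.902% ± 0.016 in the overexpression line. The mean was lower in the knockdown line for all 10 genes, as was the median over all genes, and with 2 courses per line an exact two-sided permutation test cannot go below p = 0.33.

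The change over the s4U pulse was not among the values used to choose the genes. Its libraries did enter the levels, the chase changes and the decay, so its test is not independent of the choice. None of the 10 genes was called between the labelled 0 min and the unlabelled libraries (edgeR, adjusted p of at least 0.888). Of the 11826 genes tested 0% were called, though 402 had an unadjusted p under 0.05. A p that misses the threshold does not show that the levels were alike. Shifts that differ by line, as given below for CTGF and EDN1, are averaged in this comparison. The log2 differences ran from -0.26 ± 0.24 for ANKRD1 to 0.19 ± 0.19 for AXL. DESeq2 called 4 genes and the fit with no filter on low counts 14 genes over the whole table, none of them among the 10. In this comparison 2 of the 4 unlabelled libraries were among those that stood apart.

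The upstream pathway was measured beside its targets. YAP1 averaged 95.5 ± 7.79 CPM in the knockdown line and 81.7 ± 4.43 CPM in the overexpression line (SD, n = 2 courses each). The log2 difference of 0.23 ± 0.13 was not called (edgeR, adjusted p = 0.233). WWTR1 averaged 68.6 ± 5.81 CPM in the knockdown line and 60.04 ± 3.75 CPM in the overexpression line (adjusted p = 0.314). TEAD1 was lower in the knockdown line, at 95.7 ± 3.76 CPM, against 133 ± 18.6 CPM in the overexpression line (log2 -0.47 ± 0.13, edgeR, adjusted p = 0.028). None of these 3 genes was called at any time of the chase. Of 30 Hippo pathway genes tested, 2 were called higher and 6 lower in the knockdown line and 22 were not called, with a median log2 difference of -0.0016, beside 11.2% of all genes called higher and 10.7% lower. The called genes with the largest differences were the scaffold FRMD6 (0.84 ± 0.15), the LATS-pathway adaptor SAV1 (-0.80 ± 0.20), the polarity protein SCRIB (-0.58 ± 0.13) and AMOT (-0.58 ± 0.16). SAV1 and SCRIB were not called in the 0 min libraries alone, and SAV1, SCRIB and AMOT were not called in the 1440 min libraries alone. Without overexpression course 1 the log2 difference was -0.48 for SAV1 and -0.56 for AMOT. Without knockdown course 2 it was -0.53 for AMOT and -0.51 for SCRIB, and without overexpression course 2 -0.58 and -0.53. At 1440 min, 1 of 30 was called higher, the kinase MAP4K4 (0.49 ± 0.11), and 1 lower, the TEAD cofactor VGLL3 (-0.53 ± 0.14). Neither MAP4K4 nor VGLL3 was called in the joint fit of 24 libraries. The list of Hippo pathway genes was chosen with earlier results of these data known, so its counts are no test of it.

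Of a further 16 genes of published YAP/TAZ signatures, 5 were called higher and 1 lower in the knockdown line and 10 were not called, with a median log2 difference of 0.07, beside the same shares of all genes. IGFBP3, which binds insulin-like growth factors, was at 1069 ± 8.15 CPM in the knockdown line and 255 ± 2.97 CPM in the overexpression line (log2 2.07 ± 0.12). F3, the tissue factor of blood clotting, differed by 1.26 ± 0.15, TGFB2 by 0.99 ± 0.19 and the transcription factor FOXF2 by -0.90 ± 0.17. TGFB2 was not called in the 1440 min libraries alone. At 1440 min 2 of the 16 were called lower, GADD45A (-0.87 ± 0.13) and F3 (-0.58 ± 0.12), and DOCK5 was higher (0.49 ± 0.12). GADD45A, F3 and DOCK5 were not called in the joint fit of 24 libraries. The median change of these 16 genes was -0.06, beside -0.46 for the 10 genes. This list too was chosen with earlier results of these data known, so its counts are no test of it.

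Genes driven by SRF, the serum response factor that shares many cytoskeletal targets with YAP, were called lower at 1440 min in 11 of 16 cases and higher in none (median log2 change -0.61), beside 2.27% of all genes called lower and 2.36% higher. ACTA2 changed by -1.11 ± 0.14, TPM1 by -0.88 ± 0.09, CNN2 by -0.77 ± 0.12 and TGFB1I1 by -0.75 ± 0.13. TGFB1I1 was not called in the joint fit of 24 libraries. Between the lines, 8 of the 16 were called higher in the knockdown line and none lower, beside 11.2% and 10.7% of all genes. Those called were led among genes of at least 5 CPM by TPM2 (0.83 ± 0.13), CNN1 (0.79 ± 0.21), MYL9 (0.67 ± 0.16) and TPM1 (0.56 ± 0.12). CNN1 was not called in the 0 min (0.80) or 1440 min (0.15) libraries alone, and TPM1 not in the 1440 min libraries alone (0.41). MYL9 differed by 0.43 without knockdown course 2 and by 0.57 without overexpression course 1. Without overexpression course 2, CNN1 differed by 0.57. Immediate early genes, which respond to fresh serum within minutes, were called higher at 180 min in 8 of 16 cases, beside 0.638% of all genes, among them FOSB (3.91 ± 0.28), EGR1 (3.66 ± 0.18), FOS (3.55 ± 0.41) and KLF6 (1.10 ± 0.13). Of these, 3 were still called at 360 min. At 1440 min only DUSP1 of the 15 tested was called, and it was lower (-0.74 ± 0.15). In the joint fit of 24 libraries FOS was not called at 180 min, EGR1, IER2 and KLF6 not at 360 min and DUSP1 not at 1440 min. The SRF and immediate early lists were chosen with earlier results of these data known, so their counts are no test of them. The part of a serum or medium effect in the levels of the 10 genes was not tested.

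Across the 34 libraries, among the genes whose level (log2(CPM + 1)) ran most like ANKRD1, of 8397 with at least 10 CPM, were FGF2 (r = 0.932), INHBA (0.914), ELL2 (0.906) and GJA1 (0.900). For CTGF they were SGK1 (r = 0.859), LIMA1 (0.840), AMIGO2 (0.836), THBS1 (0.830) and PRPS1 (0.826). Within the 17 knockdown libraries the level of CTGF went with ANKRD1 (r = 0.831), EDN1 (0.838), CYR61 (0.783) and AMIGO2 (0.750). Within the 17 overexpression libraries it went with AMIGO2 (r = 0.802) and EDN1 (0.727), while r was 0.164 with ANKRD1 and -0.138 with CYR61. AXL ran against CYR61 in both lines, with r = -0.540 over knockdown libraries and r = -0.723 over overexpression libraries. These values describe libraries that share courses and times, and the 720 min and unlabelled libraries of overexpression course 1 are among the 17. In these libraries ANKRD1 was at 867 and 714 CPM and CYR61 at 3707 and 2845 CPM, with CTGF at 628 and 664 CPM. The r values without them were not computed.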

How the data were processed

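SLAM-seq 3′ end libraries (QuantSeq FWD) of 34 samples were analysed. Per the file headers, the authors' tables were made with SLAMdunk 0.4.3, and per the labels on hg38. They hold deposited raw counts per 3′ UTR interval of reads, reads with a T>C conversion, multimapped reads, covered T bases and conversions. The deposited CPM scales the read count to mapped reads, and the deposited T>C rate is a fraction (conversions divided by covered T bases). Multigene intervals (1168, 2.28% to 2.74% of reads) were left out, and intervals of a symbol were summed. Levels between the lines were tested with edgeR 4.0.16 (quasi-likelihood, TMM, filterByExpr, R 4.3.3) on each course's summed counts from the 6 samples that all courses share, and times on single libraries with line in the model. Half-lives took these steps from the study's methods: unlabelled rate subtracted, exp(-Kt) fitted to at least 4 times of at least 1 CPM, R2 of at least 0.6. Intervals with over 10% multimapped reads were left out here in addition, and the study's omission of early time points with few labelled genes was not applied. DESeq2 1.42.0 was an alternative. Chase libraries of a course are treated as separate samples, so the main fits of times do not pair libraries within a course. In alternative fits of times, the replicate block has a term for each course and so pairs them. In the line comparison it is a term for the replicate number. The count fits were tested on simulated data.

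The 10 genes and all gene lists were chosen with earlier results of these data known. Of the other lists, the 4 called genes with the largest change and at least 5 CPM are named, and YAP1, WWTR1 and TEAD1 always. For likeness to CTGF and ANKRD1, the 5 genes with the highest Pearson r are named, except 1 that is not reported here. Replicate libraries of a line and time were compared in 14 pairs, and all differed by more than counting error (chi-square per degree of freedom 26.3 to 393). P-values measure only the spread between these libraries, which may be technical.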

Additional observations from a re-analysis of the deposited data

Results flagged for a closer look

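A set of 5 changes ran one way in both knockdown courses and the other way in both overexpression courses. None of these differences was tested, and each rests on 4 pairs of libraries. How often all genes show such a pattern was not computed, so nothing is read from the count of 5. For CTGF and both EDN1 changes the value of overexpression course 2 was small (0.00, -0.02 and 0.03). EDN1 at 360 min over 0 min had log2 changes of 0.72 and 0.71 in the knockdown courses and of -0.52 and -0.02 in the overexpression courses, a difference of 0.98. AXL at 360 min over 0 min had -0.94 and -0.17 in the knockdown courses and 0.35 and 0.08 in the overexpression courses, a difference of -0.77, with knockdown course 1 at 396 CPM at that time. AMIGO2 at 180 min over 0 min had 0.23 and 0.07 in the knockdown courses and -0.10 and -0.06 in the overexpression courses, a difference of 0.23. At 0 min over unlabelled, CTGF had -0.26 and -0.23 in the knockdown courses and 0.42 and 0.00 in the overexpression courses, a difference of -0.45. At 0 min over unlabelled, EDN1 had -0.12 and -0.24 in the knockdown courses and 0.56 and 0.03 in the overexpression courses, a difference of -0.47, and in both of these the course 1 unlabelled libraries are among those that stood apart.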

How the results depend on the processing

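The line comparison called 2885 genes, 6 of them among the 10. It called 5251 genes with a block on the replicate number, 1870 in the 0 min libraries alone and 1020 in the 1440 min libraries alone. In each of the last 2, 3 of the 10 were called. For the comparisons of times below, a replicate block has a term for each course. In the 1440 min libraries alone EDN1 (log2 -0.36) and DUSP1 (-0.20) changed sign. Leaving out 1 course gave 1992 to 2385 genes and 5 to 6 of the 10. At 1440 min 552 genes were called. DESeq2 called 867, the joint fit of 24 libraries 61, with 4 of the 10, and leaving out 1 course gave 281 to 348 genes and 4 to 6 of the 10. At 720 min, with 6 genes called and 1 of the 10, the count was 187 with no filter on low counts, 152 by DESeq2, 2 without intervals of over 10% multimapped reads, 1 with a replicate block and 49 in the joint fit. AMIGO2 was the 1 of the 10, and 0 of the 10 were called without those intervals and with the replicate block. Leaving out 1 course at 720 min gave 0 to 250 genes and 0 to 2 of the 10, the highest without overexpression course 1, where ANKRD1 was called lower (log2 -0.51, with 0.30 as the highest value without 1 course). At 180 min, with 85 genes called, the count was 141 with no filter, 154 by DESeq2 and 15 in the joint fit, and CTGF was the 1 of the 10 called higher with no filter, by DESeq2 and with a replicate block. Leaving out 1 course there gave 58 to 83 genes. At 360 min, with 89 genes called, the count was 193 with no filter, 214 by DESeq2 and 19 in the joint fit, and leaving out 1 course gave 26 to 165 genes and 0 to 1 of the 10, AMIGO2 without knockdown course 1. The s4U comparison called 0 genes, 14 with no filter and 4 by DESeq2. The difference between the lines at 1440 min called 2 genes, 16 with no filter, 18 by DESeq2, 19 with a replicate block, 0 in the joint fit and 3 to 5 without 1 course. The cause of these differences was not tested.

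Replicate numbers were not taken to pair courses between the lines, since the labels name no shared batch. Differences between courses 1 and 2 correlated between the lines at r of 0.128 to 0.349 over genes at the 6 shared times. The median half-life of the 10 genes was 3.15 h (knockdown line) and 2.48 h (overexpression line) with no background subtracted, and 2.01 and 1.44 h for decay from 180 min on. Without 1 course it was 2.98 to 3.14 h in the knockdown line and 2.34 to 2.40 h in the overexpression line. With no background subtracted the median T>C rate of the 10 genes at 0 min was 0.969% in the knockdown line, against 0.934% with it subtracted. The log2 differences of the 10 genes that were not called either way changed sign under some settings, 13 times in the s4U comparison, 7 in the difference between the lines at 1440 min, 5 each at 180, 360 and 720 min and once between the lines. Intervals of over 10% multimapped reads did not hold any of the 10 genes.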
